A study of Rattus norvegicus with 311 samples.

Results

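The genes described here copy the genome and divide the cell: 14 genes of DNA replication and 25 genes of mitosis, followed in cultured rat liver cells. They were taken by name from a list of 41 genes, which was chosen with earlier results of these data known. 39 of the 41 had a probe, and all of their 43 probes were kept out of 22253 probes in the table (14 replication probes and 29 mitosis probes). Mcm7 and Ccne1 had none, and Aurkb, Cenpe, Kif2c and Nusap1 had 2 probes each. The cells were primary hepatocytes of male Sprague Dawley rats, alone as a monoculture or together with non-parenchymal liver cells as a co-culture, on collagen in flat 96-well plates. RNA was counted by TempO-Seq, in which probe pairs are ligated on the RNA and sequenced, in 311 libraries (156 of monocultures, 155 of co-cultures) forming 78 groups of 3 to 5 on days 1, 3 and 7 after plating. Each culture and day had wells with vehicle alone ("untreated vehicle control"), ketoconazole at 1, 10 and 30 µM, GW7647 at 0.01, 0.1 and 1 µM, gemfibrozil at 10, 100 and 1000 µM, and phenobarbital at 0.1, 1 and 10 mM. Ketoconazole is an antifungal that inhibits cytochrome P450 enzymes, GW7647 and gemfibrozil activate the nuclear receptor PPARα, and phenobarbital activates the receptor CAR. The labels do not give how many animals the cells came from, so the spread between plates may be technical.

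A cell that enters the cycle first loads the MCM helicase (Mcm2 to Mcm7) onto its DNA with the help of Cdc6 and Cdt1, under the control of the transcription factor E2F1 and cyclin E, then makes nucleotides with Tyms, Rrm1, Rrm2 and Tk1 and copies its DNA with the sliding clamp Pcna. Later it makes cyclins A2, B1 and B2 for the kinase Cdk1, condenses its chromosomes, attaches them to the spindle through centromere proteins and kinesins, and splits. Adult hepatocytes rest outside the cycle until the liver is injured, and in culture they rarely divide without growth factors, whereas fibroblast-like and other non-parenchymal cells can expand. Replication genes are typically switched on through E2F sites. Mitosis genes are typically held down in resting cells through the cell cycle homology region (CHR) and driven through CCAAT boxes, which is why the promoters of both groups are shown.

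The 160 bases before the start of 4 mitosis genes and 3 replication genes follow, 5′ to 3′ on the strand of the gene, from RefSeq on the GRCr8 assembly. All are named in the results below, although Mcm2 and Mcm6 passed only in the test over time that used all wells. Capitals in the first 4 mark CHR letters (TTTGAA or TTTAAA) and CCAAT boxes, and in the last 3 the E2F letters, read on either strand. The first group is Ccnb2 at chr8:79981659-79981818 (minus strand), Top2a at chr10:84473094-84473253 (minus), Cenpe at chr2:226310897-226311056 (plus) and Mki67 at chr1:199952594-199952753 (minus).
Ccnb2: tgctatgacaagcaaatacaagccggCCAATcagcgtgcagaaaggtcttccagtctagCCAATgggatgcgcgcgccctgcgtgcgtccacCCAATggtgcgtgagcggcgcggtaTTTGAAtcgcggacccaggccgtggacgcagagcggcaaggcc
Top2a: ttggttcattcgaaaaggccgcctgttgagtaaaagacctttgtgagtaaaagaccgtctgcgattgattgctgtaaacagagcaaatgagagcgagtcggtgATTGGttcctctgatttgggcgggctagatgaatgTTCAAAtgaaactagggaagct
Cenpe: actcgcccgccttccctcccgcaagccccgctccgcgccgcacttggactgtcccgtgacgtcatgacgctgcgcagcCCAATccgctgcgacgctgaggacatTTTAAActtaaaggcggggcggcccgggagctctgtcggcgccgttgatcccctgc
Mki67: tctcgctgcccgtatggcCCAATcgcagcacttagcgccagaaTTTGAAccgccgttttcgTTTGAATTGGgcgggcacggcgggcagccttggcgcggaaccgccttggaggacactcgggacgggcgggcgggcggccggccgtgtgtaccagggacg
The second group is Mcm2 at chr4:122918095-122918254, Mcm6 at chr13:42404353-42404512 and Tyms at chr9:120776084-120776243, all on the minus strand.
Mcm2: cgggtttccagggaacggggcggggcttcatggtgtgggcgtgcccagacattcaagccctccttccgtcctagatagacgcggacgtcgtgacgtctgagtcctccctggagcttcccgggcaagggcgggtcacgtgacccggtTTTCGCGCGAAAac
Mcm6: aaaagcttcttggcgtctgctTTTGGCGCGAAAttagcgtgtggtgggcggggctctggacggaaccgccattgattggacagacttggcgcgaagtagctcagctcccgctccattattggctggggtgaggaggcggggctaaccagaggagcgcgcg
Tyms: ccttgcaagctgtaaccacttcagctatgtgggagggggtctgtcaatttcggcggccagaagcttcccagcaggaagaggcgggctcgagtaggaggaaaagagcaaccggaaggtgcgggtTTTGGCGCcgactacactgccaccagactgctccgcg

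In Mki67 a CHR and a CCAAT box on the other strand overlap by their letters, and in Mcm2 and Mcm6 the E2F letters of both strands overlap. Across windows of 300 bases, 250 before and 50 after the start, CHR letters stood in 21 of the 21 mitosis genes with a window in the table and in 2 of the 11 replication genes of the list of 41 with one (Mcm7 and Ccne1, which had no probe, among them), against 28.3% of all 33469 windows. CCAAT boxes stood in 17 of 21 and 6 of 11, against 37.5% of all windows. E2F letters (TTTCGCGC, TTTGGCGC, TTTCCCGC, TTTGGCGG or TTTCCCGG) stood in 2 of the 21 mitosis genes and in 7 of the 11 replication genes, against 3.62% of all windows. Of 41 other genes of mitosis with a window, 32 held CHR letters, and of 32 other genes of replication, 21 held E2F letters. These letter matches are descriptions, and whether a factor binds there was not measured.

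Total counts ran from 412414 to 12272575 per library (median 6054414). A single library, of a monoculture with 30 µM ketoconazole on day 7, lay under 1000000 counts. Levels are given below as CPM (counts per 1000000) of the scaled library, and since probes differ in efficiency, levels are compared between samples of a probe, never between genes. The labels of 2 sets of libraries disagreed with themselves. All 33 phenobarbital libraries of monocultures carry ketoconazole as their compound, and 3 co-culture GW7647 libraries of day 3 described at 0.1 µM carry 1 µM; each was placed by its description. A probe entered a test when edgeR's filter with a minimum count of 10 kept it: 13 replication probes and 19 mitosis probes in the test of time, and 33, 38 and 36 of the 43 probes in the tests on days 1, 3 and 7. Probes of Bub1, Cdc20, Foxm1 and Kif11 and 1 of the 2 Aurkb probes entered none, and that Aurkb probe had 0 counts in all 311 libraries. The cyclin-dependent kinase Cdk1 and its partners Ccnb1 and Ccna2 were close to the limit of detection: over the 4 vehicle libraries of a group, Cdk1 gave 6 to 37 counts, Ccnb1 0 to 7 and Ccna2 1 to 26. In such bulk samples, fewer cells of a type and less RNA per cell cannot be told apart.

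In vehicle wells the summed level of mitosis genes was higher on day 7 than on day 1 on every plate of both cultures, although few of these genes passed the test singly, and the replication sums of the days overlapped. The CPM of the 29 mitosis probes summed to 66.4 ± 40.3 (SD, n = 4) on day 1, 157 ± 87.4 on day 3 and 230 ± 133 on day 7 in monoculture. In co-culture the sums were 80.1 ± 68.0, 193 ± 109 and 338 ± 151. The 14 replication probes summed to 243 ± 87.9, 289 ± 85.3 and 243 ± 97.2 in monoculture and to 287 ± 101, 405 ± 125 and 365 ± 208 in co-culture. Plate 1 had the highest mitosis sum of both cultures on days 1 and 3, and plate 5 on day 7 (423 and 562). The gain from day 1 to day 7 within a plate ranged widely: in monoculture the mitosis sum went from 126 to 190 on plate 1, from 56.1 to 119 on plate 3, from 40.1 to 423 on plate 5 and from 43.5 to 188 on plate 7. It was thus higher on day 7 on every plate, and so it was in co-culture, where it went from 181 to 242, from 35.0 to 267, from 57.0 to 562 and from 47.2 to 279.

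**Figure D1:**
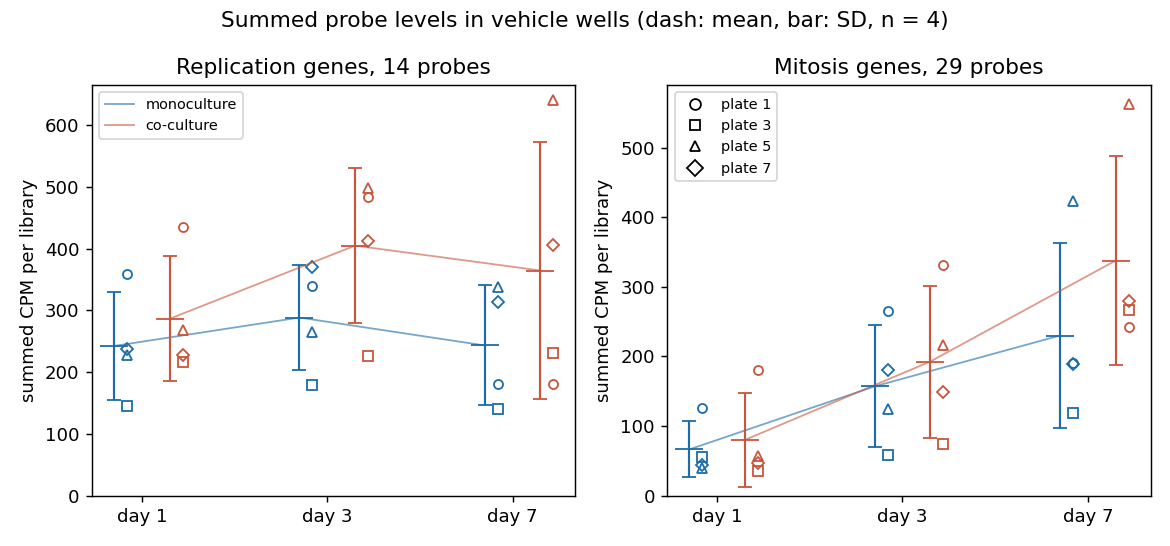
Summed CPM of the 14 replication probes and the 29 mitosis probes (y axis) in each vehicle library by day and culture, with the mean and SD of 4 plates. The mitosis sums climb from 35.0 to 181 on day 1 to 119 to 562 on day 7, whereas the replication sums of the 3 days overlap.

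Cyclin B2 (Ccnb2), which switches on Cdk1 at the entry into mitosis, was at 21.6, 20.03, 4.92 and 6.22 CPM on day 1 on plates 1, 3, 5 and 7 of the monoculture, and at 55.9, 38.5, 94.5 and 42.2 CPM on day 7. In co-culture it was at 37.7, 9.51, 8.76 and 5.90 CPM on day 1 and at 57.2, 59.2, 155 and 55.4 CPM on day 7. No day 7 library fell among the day 1 libraries in either culture. The log2 change from day 1 to day 7 was 2.20 ± 0.62 (SE, edgeR's quasi-likelihood test, adjusted p = 0.0136) in monoculture and 2.43 ± 0.63 (adjusted p = 0.00749) in co-culture. Centromere protein E (Cenpe), the kinesin that carries chromosomes to the middle of the spindle, was at 10.9, 5.72, 1.82 and 3.27 CPM on day 1 and at 25.6, 16.1, 76.3 and 24.0 CPM on day 7 of the monoculture, and at 10.5, 2.16, 4.99 and 8.38 CPM against 39.9, 40.8, 84.4 and 36.6 CPM in co-culture. Here too the 2 days did not overlap. Its log2 change was 2.76 ± 0.72 (adjusted p = 0.00819) in monoculture and 2.99 ± 0.72 (adjusted p = 0.00483) in co-culture. Nusap1, which bundles spindle microtubules, had its 4 monoculture libraries at 22.4, 6.30, 4.92 and 6.55 CPM on day 1 and at 28.1, 18.9, 50.3 and 34.0 CPM on day 7, where plate 1 of day 1 overlapped with day 7. Its log2 change was 1.77 ± 0.63 (adjusted p = 0.0438) in monoculture and 2.02 ± 0.63 (adjusted p = 0.0238) in co-culture, by the probe that passed the filter.

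In monoculture these were the 3 of 32 tested probes that were higher on day 7 than on day 1, where 13.7% of all 11823 probes were, so the share of members was not above that of all probes. In co-culture 7 of 32 were higher, against 15.2% of all probes, and 6 of the 7 were mitosis probes. The proliferation marker Mki67 rose there by 1.80 ± 0.64 on the log2 scale (adjusted p = 0.0434), from 12.4, 2.81, 5.88 and 4.76 CPM to 15.9, 18.1, 32.1 and 21.7 CPM. Cenpf, a kinetochore protein, rose by 2.54 ± 0.86 (adjusted p = 0.0356), and Kif20a, a kinesin of the dividing cell's midzone, rose by 2.95 ± 0.95 (adjusted p = 0.0277). The seventh probe was a replication gene: Rrm2, the subunit of ribonucleotide reductase made in S phase, rose by 2.97 ± 0.95 (adjusted p = 0.0261), from 2.83, 0, 1.78 and 1.33 CPM to 4.69, 4.14, 28.3 and 10.0 CPM. Top2a, which untangles DNA before chromosomes separate, did not pass: it was at 35.4, 2.38, 5.66 and 1.52 CPM on day 1 and at 32.4, 40.4, 87.7 and 30.6 CPM on day 7 of the co-culture, so plate 1 alone was not higher. With the plate as a block Top2a did pass, at a log2 change of 2.83 ± 0.67 (adjusted p = 0.00318) in co-culture and 1.96 ± 0.63 (adjusted p = 0.0228) in monoculture.

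In monoculture Mki67 and Top2a, at log2 changes of 1.28 ± 0.63 (adjusted p = 0.145) and 1.67 ± 0.80 (adjusted p = 0.132), did not pass without the block either. The direction was shared by mitosis probes that did not pass. All 19 tested mitosis probes had a log2 change above 0 from day 1 to day 7 in each culture, with medians of 1.67 in monoculture and 1.96 in co-culture. The median of all probes was 0.24 and 0.22. The 13 tested replication probes had medians of 0.21 and 0.45, close to that of all probes in monoculture and above it in co-culture. Of them 10 and 12 were above 0. The calls depended on single plates: in monoculture 8 probes were called without plate 1, 0 without plate 5 and 1 without plate 7, and in co-culture 2 were called without plate 3, without plate 5 or without plate 7. A fit with the plate as a block called 5 probes in monoculture, Cenpf among them, at 2.64 ± 0.68 (adjusted p = 0.00572).

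**Figure D2:**
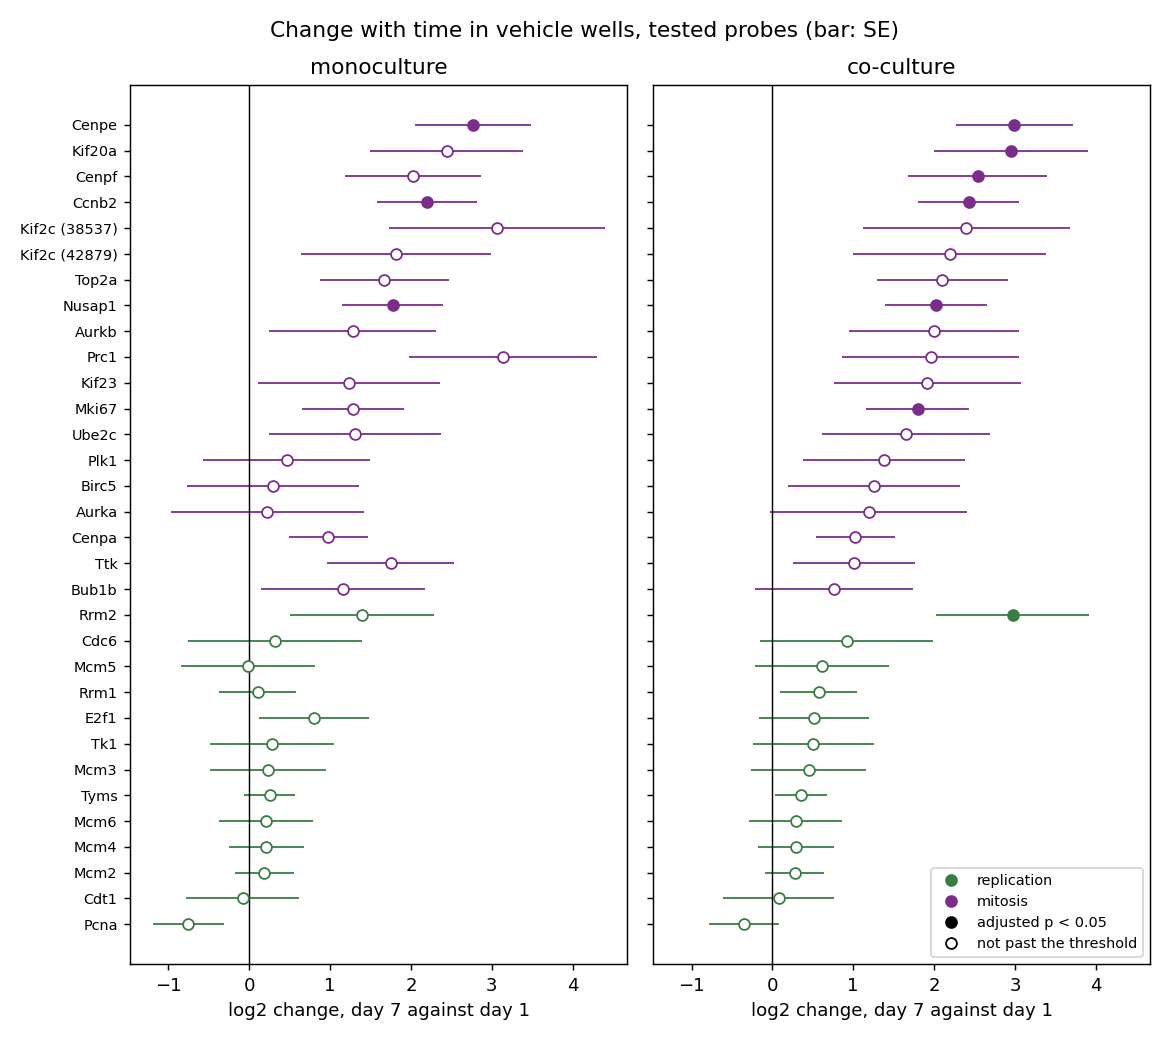
Log2 change from day 1 to day 7 (x axis) of each tested probe in vehicle wells of each culture, with its SE and its call. Every mitosis probe lies to the right of 0, with medians of 1.67 and 1.96. Of the 13 replication probes, 10 in monoculture and 12 in co-culture lie to the right of 0, with medians of 0.21 and 0.45.

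Between neighbouring days fewer probes were called. By edgeR 0 of 32 probes were called between days 1 and 3 in monoculture (1.76% of all probes higher) and 0 in co-culture (4.11% higher), and 4 and 7 had an unadjusted p under 0.05, while DESeq2 called 1 and 4. Between days 3 and 7, 0 were called in monoculture (8.14% of all probes higher; 4 at an unadjusted p under 0.05, 3 by DESeq2). In co-culture 1 was called (11.8% higher), Birc5, or survivin, a subunit of the chromosomal passenger complex. Its probe gave 22 counts in the 4 libraries of day 1, 0 on day 3 and 64 on day 7, on day 7 at least 10.7-fold higher than on day 3 when the 0 is read as 3 counts over the group. Blocking by plate, 9 probes were called over these 4 comparisons in place of 1. Without plate 1, 5 were called, and without plate 3 or without plate 5, 0. The change with time did not differ between the cultures for any member by edgeR: 0 of 96 tests of that difference passed (0% of all probes; 2 at an unadjusted p under 0.05).

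Among replication genes the helicase subunit Mcm2 was at 60.4, 29.2, 33.0 and 29.6 CPM on day 1 of the monoculture, at 95.1, 42.8, 44.9 and 70.1 CPM on day 3 and at 30.7, 27.8, 46.1 and 59.4 CPM on day 7. Days 1 and 7 overlapped, and each plate was highest on day 3 except plate 5, where days 3 and 7 were alike. Thymidylate synthase (Tyms), which makes the thymine nucleotide, was at 46.1, 27.8, 31.4 and 40.1 CPM on day 1 and at 32.0, 28.1, 54.9 and 47.7 CPM on day 7. These 2 days overlapped as well. Pcna was at 47.5, 16.3, 44.1 and 48.1 CPM on day 1 and at 20.2, 12.3, 22.9 and 31.4 CPM on day 7 of the monoculture, lower on each plate. It did not pass the test in vehicle wells. E2f1, Cdt1, Mcm5 and Mcm6 had group means between 2.71 and 9.69 CPM on every day, with overlapping days, and Ccne2 stayed at or below 0.61 CPM.

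The compound wells were followed over the same days, which gave a test on 52 libraries per culture and day (51 of co-culture on day 7), averaging vehicle and the 12 doses. This comparison was added after the vehicle values had been seen. The wells of a day share 4 or 5 plates whose libraries deviate together, and the fit had no plate term, so its SEs and p-values are too small. It called 26 of 38 member probes higher on day 7 than on day 1 in monoculture (28.6% of all probes higher) and 27 in co-culture (30.3%). In each culture 20 of the 24 mitosis probes were among them. Top2a changed by 2.76 ± 0.28 on the log2 scale in monoculture and 2.46 ± 0.27 in co-culture, Mki67 by 2.19 ± 0.21 and 1.82 ± 0.21, and Cenpf by 3.00 ± 0.27 and 2.40 ± 0.26. Plk1, the kinase that drives mitotic entry and exit, rose by 1.88 ± 0.35 in monocultures and by 2.83 ± 0.38 in co-cultures. The probes of Aurka and Ccnb1 did not pass in either culture.

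Replication genes split in this test: of 14 probes 6 were higher in monoculture and 7 in co-culture, not all of them named here. Rrm2 gained 3.38 ± 0.33 (monoculture) and 2.84 ± 0.32 (co-culture) on the log2 scale, Cdc6, which loads the helicase, by 1.15 ± 0.31 and 1.03 ± 0.30, and Tk1, which salvages thymidine, by 0.78 ± 0.26 in both. Rrm1, the constant partner of Rrm2, rose by 0.50 ± 0.17 and 0.64 ± 0.18, Tyms by 0.34 ± 0.11 and 0.32 ± 0.11, and Mcm2 by 0.28 ± 0.11 and 0.43 ± 0.11. Mcm3, Mcm4, Mcm5, Mcm6 and Cdt1 did not pass in either culture. Pcna was the single member that fell in both cultures, by 0.70 ± 0.14 (adjusted p = 3.28e-06) and 0.42 ± 0.14 (adjusted p = 0.00595), where 24.9% and 24.7% of all probes fell. On day 3, 15 probes were higher and 5 lower than on day 1 in monoculture (15.2% and 20% of all probes), and 20 were higher in co-culture (15.7%). The 5 that fell were Pcna, Mcm5, Mcm6, Aurka and Cenpa. From day 3 to day 7, 22 rose in monoculture (29.8%) and 15 in co-culture (30.3%).

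The mean mitosis sum rose in every treatment, but not on every plate. For each of the 13 treatments (vehicle and 12 doses) the mean mitosis sum was higher on day 7 than on day 1 in both cultures, with a median ratio of 3.72 in monoculture and 3.46 in co-culture. The lowest ratio in monoculture, 1.58, was at 10 mM phenobarbital, and the lowest in co-culture, 1.865, was at 1 µM GW7647. On plate 3 the mitosis sum fell at 10 mM phenobarbital, from 69.5 to 17.9 CPM in monoculture and from 78.3 to 46.7 CPM in co-culture. At 1000 µM gemfibrozil it went on that plate from 99.5 to 57.2 CPM and from 59.9 to 58.0 CPM. The treatments share plates, so their ratios are not independent. The replication sum was higher in 10 of the 13 treatments in each culture, with median ratios of 1.33 and 1.28.

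Markers of several cell types moved over the same days. In vehicle wells 14 of 14 tested stellate and mesenchymal markers were higher on day 7 than on day 1 in each culture, and 8 (monoculture) and 9 (co-culture) of 16 hepatocyte markers were lower. The summed mesenchymal CPM went from 134 to 476 per library on day 1 to 1886 to 15590 on day 7 in monoculture. In co-culture it went from 148 to 594 to 5531 to 24640. On day 7 it was highest on plate 5, which also had the highest mitosis sums of that day. The plates did not match on day 3. There plate 1 had the highest mitosis sums (265 CPM in monoculture and 331 CPM in co-culture) but the lowest mesenchymal sums (694 and 1012 CPM). The summed hepatocyte CPM went from 39800 to 58100 to 4045 to 19060 and from 48490 to 93710 to 9506 to 13970. Cholangiocyte and progenitor markers were higher for 7 of 10 probes in each culture and macrophage markers for 6 and 9 of 15 (1 and 2 lower). Of 11 endothelial markers 2 were higher in each culture, of 2 lymphocyte markers 0 and 1, and of 1 neutrophil and erythroid marker 1. Of all 11823 probes 13.7% in monoculture and 15.2% in co-culture were higher, and 1035 and 894 were lower. The endothelial counts thus lay near the share of all probes. The collagen gene Col1a1, a defining mesenchymal marker, was at 0 in all vehicle libraries of day 1. The endothelial marker Stab2 was at 0 in all of day 7, but its day 1 medians were only 0.527 CPM in monoculture and 0.190 CPM in co-culture. Of the 11 endothelial markers, 3 in monoculture and 8 in co-culture had a log2 change above 0, and 0 were called lower in either. Albumin stayed detected, with medians of 5940, 4541 and 2076 CPM on days 1, 3 and 7 of the monoculture, and the monocultures carried non-parenchymal markers from day 1. The part of these cell types in the change of the mitosis genes was not tested.

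Co-cultures and monocultures of the same day did not differ in any member that passed the test. In vehicle wells edgeR called 0 of 33 probes on day 1, 0 of 38 on day 3 and 0 of 36 on day 7, as 0% of all probes were called on each day (unadjusted p under 0.05 for 0, 1 and 1, and DESeq2 called 0). With all wells of a day and the treatment as a term, 0 were called on day 1 (0.32% of all probes), day 3 (0.126%) and day 7 (0.153%). At an unadjusted p under 0.05 there were 8, 13 and 2, and DESeq2 called 1 on day 1. The sign was nevertheless shared on day 3: all 38 probes were above 0, with a median log2 difference of 0.43 (co-culture minus monoculture) against 0.02 for all probes, and under another scaling 37 of 38 were. On days 1 and 7, 28 of 33 and 32 of 36 were above 0. The difference with the smallest p was that of Mki67 on day 1, at 0.72 ± 0.21 (adjusted p = 0.134). When the share of the 50 most abundant probes of each library was added as a term, 3 were called.

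Members were lower at the highest doses of ketoconazole, gemfibrozil and phenobarbital: 11, 4 and 2 probes on day 1, 3, 4 and 10 on day 3, and 0, 0 and 4 on day 7. The gemfibrozil counts and the phenobarbital count of day 1 lay near the shares of all probes given below, and no probe passed with GW7647. The comparisons below set the highest dose against vehicle as the mean of both cultures. All 4 compounds share the vehicle libraries of a day.

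Ketoconazole at 30 µM lowered several members of both lists on day 1. Of 33 probes 11 were called lower, where 9.19% of all probes were, and 0 were called higher (8.13%). 8 of these were mitosis probes. The median log2 change was −1.70 over the 20 mitosis probes and −0.39 over the 13 replication probes, against 0.06 for all probes. Of these, 2 mitosis probes and 4 replication probes were above 0. Genes of mitosis and replication outside the list followed less. Among them 1 of 37 mitosis probes and 1 of 29 replication probes were called lower, with medians of −0.63 and 0.02. Top2a was at 0, 0.682 and 1.69 CPM (lowest, median, highest of 8 libraries) against 1.52, 5.61 and 35.4 CPM in vehicle. All 8 treated libraries lay below the vehicle median, and the log2 change was −3.998 ± 0.79 (adjusted p = 0.000109). Mki67 was at 0, 0.921 and 2.56 CPM against 2.72, 5.32 and 12.4 CPM, with no overlap, a log2 change of −2.42 ± 0.57 (adjusted p = 0.00115). Cenpf had a log2 change of −3.36 ± 0.85 (adjusted p = 0.00268), with 14 counts against 150.

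Several probes with few counts gave next to none at this dose on day 1. Kif23, a kinesin needed to split the cell, had 0 counts over 8 libraries against 74 in vehicle, at least 21.8-fold lower. Kif2c, which removes faulty chromosome attachments, had 0 against 48, at least 14.1-fold lower. Birc5 had 1 count against 46, a ratio of 40.7 (95% counting interval 6.95 to 1640). Ube2c, which marks cyclin B for destruction, had 4 counts in a single library against 63, and Ttk, a kinase of the spindle checkpoint, 12 against 79, with a log2 change of −2.64 ± 0.94 (adjusted p = 0.0401). In Ccnb2 the groups overlapped: it was at 0, 6.84 and 46.4 CPM against 4.92, 9.13 and 37.7 CPM in vehicle.

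Of the replication genes Rrm2 had 1 count against 98, a ratio of 86.7 (interval 15.2 to 3460). Mcm5 was at 0, 1.52 and 3.29 CPM against 3.89, 5.84 and 9.48 CPM, without overlap, and its log2 change was −2.07 ± 0.62 (adjusted p = 0.0131). Tyms was at 11.3, 22.3 and 27.5 CPM against 27.4, 41.3 and 55.1 CPM. The highest treated library barely passed the lowest vehicle library, and the log2 change was −0.90 ± 0.23 (adjusted p = 0.00241). Mcm2 was at 31.5, 37.1 and 54.8 CPM against 28.95, 33.6 and 70.5 CPM, and Pcna at 28.4, 45.7 and 64.5 CPM against 16.3, 45.5 and 54.8 CPM, both fully overlapping with vehicle. Without plate 1, 7 probes were called lower, and 4 when only ketoconazole 30 µM and vehicle wells entered the fit (Top2a, Mki67, Mcm5 and Tyms). The other 7 did not pass the count filter there.

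By day 3 fewer members passed with ketoconazole: 3 of 38 were lower (2.05% of all probes) and 0 higher (1.14%). Top2a was at 1.84, 2.94 and 12.3 CPM against 5.77, 31.1 and 50.6 CPM, a log2 change of −2.57 ± 0.76 (adjusted p = 0.0406). Cenpe fell by 1.79 ± 0.53 (adjusted p = 0.0439), and Rrm2 fell by 3.12 ± 0.94 (adjusted p = 0.0465). The medians were −1.43 for the 24 mitosis probes (−1.35 with probes at 0 counts set to their bounds) and −0.76 for the 14 replication probes, against 0.17 for all. The fit blocked by plate called 9. Without plate 1, plate 5 or plate 7 it was 0, without plate 3 it was 1 and without plate 9 it was 6. On day 7 edgeR called 0 of 36 (0.518% of all probes), 8 of them having an unadjusted p under 0.05, and DESeq2 called 0. It was 1 with the plate as a block and 1 without plate 7.

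**Figure D3:**
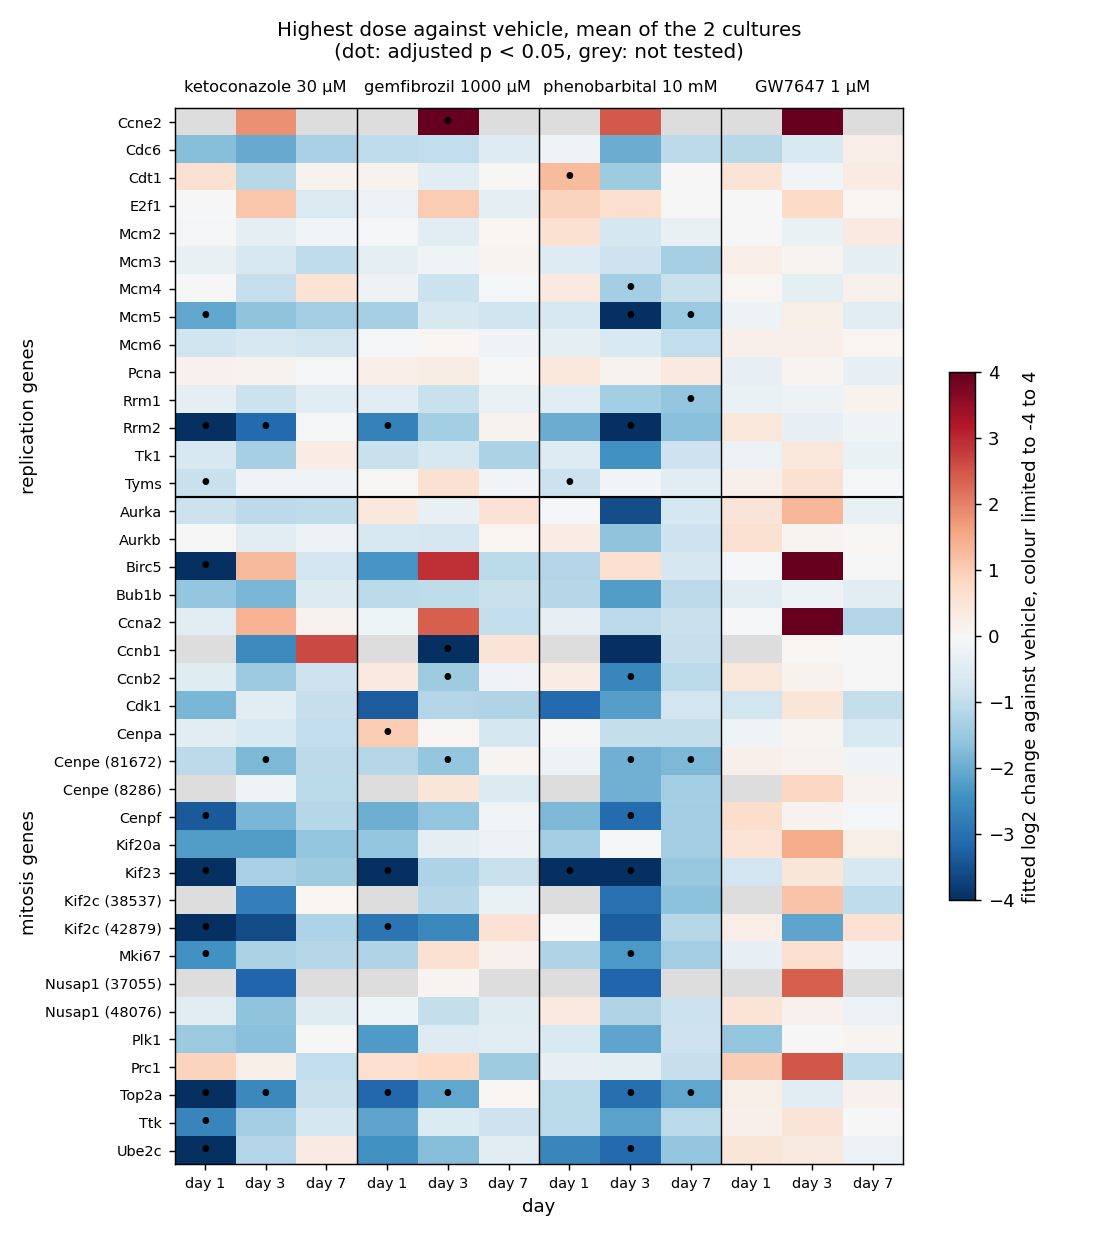
Fitted log2 change against vehicle at the highest dose (colour, limited to −4 to 4) for each member probe (rows) by compound and day (columns), the mean of both cultures. Dots mark probes that passed the test, grey marks untested probes, and where a group had 0 counts the colour is a fitted value and no bound: blue rows of mitosis genes fill ketoconazole on day 1 and phenobarbital on day 3, and GW7647 has no dot.

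Gemfibrozil at 1000 µM lowered 4 of 33 probes on day 1 (7.51% of all probes) and raised 1 (9.84%). Top2a was at 0, 1.18 and 2.31 CPM against 1.52, 5.61 and 35.4 CPM in vehicle, with all 8 treated libraries below the vehicle median and a log2 change of −3.14 ± 0.74 (adjusted p = 0.00167). Kif23 had 4 counts against 74, with a log2 change of −4.11 ± 1.06 (adjusted p = 0.00458). Kif2c had 10 against 48 (−2.92 ± 1.01, adjusted p = 0.0345), and Rrm2 16 against 98 (−2.72 ± 0.89, adjusted p = 0.0251). The probe that rose was Cenpa, the histone variant that marks centromeres, at 4.30, 13.8 and 27.0 CPM against 4.75, 7.77 and 11.7 CPM, a log2 change of 1.03 ± 0.29 (adjusted p = 0.00945). Ranges overlapped, and 7 of 8 treated libraries lay above the vehicle median. Mki67 was at 0.461, 1.75 and 7.55 CPM against 2.72, 5.32 and 12.4 CPM, and did not pass. Without plate 1 or plate 5, 1 probe was called lower, without plate 3, 2, and without plate 7, 7, and in a fit of gemfibrozil 1000 µM and vehicle wells alone it was 1 (Top2a), where Kif23 and Kif2c did not pass the count filter.

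On day 3 gemfibrozil again lowered 4 of 38 probes (7.02% of all probes) and raised 1 (13.1%). The plates were not balanced in this comparison. The treated libraries of both cultures include plate 9, which held no vehicle wells. In co-culture the treated group had no library on plate 3, which the vehicle libraries included. Ccnb2 was at 1.76, 9.76 and 57.1 CPM over 9 libraries against 18.4, 40.9 and 90.8 CPM over 8. All treated libraries but 1 lay below the vehicle median, and the log2 change was −1.41 ± 0.50 (adjusted p = 0.0355). Top2a was at 0, 0.539 and 30.5 CPM against 5.77, 31.1 and 50.6 CPM (−2.06 ± 0.71, adjusted p = 0.0317), and Cenpe changed by −1.55 ± 0.51 (adjusted p = 0.025). Ccnb1 had 0 counts against 12 in 2 libraries, at least 7.07-fold lower, and Ccne2, a cyclin of S phase entry, had 30 counts against 0, at least 5.66-fold higher. The Ccne2 call was lost with the plate as a block. The treated wells split by plate: the mitosis sum on plate 7 was 250 in co-culture against 35.9 to 64.0 on the other plates, and 167 in monoculture against 38.3 to 67.0. Without plate 7, 11 probes were called lower, and without plate 1, plate 5 or plate 9 it was 0, as in a fit of these groups alone, where Ccnb1 did not pass the count filter. On day 7 edgeR called 0 of 36 (0% of all probes), with an unadjusted p under 0.05 for 0, and DESeq2 called 0.

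With phenobarbital at 10 mM more members were called on day 3 than on day 1. On day 1 it lowered 2 of 33 probes (7.77% of all probes) and raised 1 (9.26%). Tyms was at 11.5, 23.0 and 32.8 CPM against 27.4, 41.3 and 55.1 CPM, with all 8 treated libraries below the vehicle median and a log2 change of −0.85 ± 0.22 (adjusted p = 0.00501). Kif23 had 6 counts against 74, all 6 in co-culture. Cdt1, the licensing factor, was at 3.03, 10.6 and 19.2 CPM against 1.33, 3.12 and 11.5 CPM, a log2 change of 1.26 ± 0.46 (adjusted p = 0.0473). Mki67 was at 0, 1.92 and 11.1 CPM, Top2a at 0, 2.44 and 20.5 CPM and Mcm2 at 35.1, 62.1 and 94.6 CPM, and none of these passed, although all 8 treated libraries lay above the vehicle median in Mcm2. Without plate 5, 0 were called lower. Over all highest doses 3 rises were called (Cenpa, Ccne2 and Cdt1), 0 without plate 5 and 1 without plate 7.

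On day 3 phenobarbital lowered 10 of 38 probes (7.55% of all probes) and raised 0 (5.11%). 7 of the 10 were mitosis probes. Phenobarbital had no day 3 library on plate 3, which the vehicle libraries included. The median log2 change was −2.21 over the 24 mitosis probes (−2.16 with probes at 0 counts set to their bounds) and −1.09 over the 14 replication probes, against 0.18 for all probes, and 23 of the 24 mitosis probes were below 0. Ccnb2 was at 2.45, 4.86 and 21.0 CPM over 6 libraries against 18.4, 40.9 and 90.8 CPM over 8, a log2 change of −2.62 ± 0.60 (adjusted p = 0.0014). Its highest treated library overlapped with the lowest vehicle libraries. Cenpf was at 0, 0.841 and 1.76 CPM against 2.68, 5.41 and 15.3 CPM, without overlap (−3.09 ± 0.83, adjusted p = 0.00718). Top2a was at 0.408, 1.43 and 10.4 CPM against 5.77, 31.1 and 50.6 CPM (−3.02 ± 0.87, adjusted p = 0.0126). Mki67 was at 0.408, 1.89 and 3.56 CPM against 0, 8.83 and 13.1 CPM (−2.29 ± 0.69, adjusted p = 0.0178), and the range overlapped only through a vehicle library at 0.

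Cenpe fell by 1.93 ± 0.59 (adjusted p = 0.0208) and Ube2c by 3.11 ± 1.09 (adjusted p = 0.0446), and Kif23 had 2 counts against 69, a ratio of 42.5 (interval 11.3 to 358). The 3 replication probes were Rrm2, Mcm4 and Mcm5. Rrm2 was at 0, 0.29 and 0.856 CPM against 0, 8.60 and 14.6 CPM (−4.28 ± 1.13, adjusted p = 0.00622). Mcm4, a helicase subunit, was at 6.70, 11.4 and 19.2 CPM against 11.3, 29.3 and 45.2 CPM (−1.35 ± 0.40, adjusted p = 0.0158). Mcm5 had 31 counts against 130, with 0 against 74 in monoculture and 31 against 56 in co-culture. Mcm2 was at 27.0, 43.8 and 56.6 CPM against 42.8, 69.97 and 95.1 CPM, and Pcna at 17.9, 37.3 and 65.7 CPM against 16.1, 34.2 and 57.2 CPM, and neither passed. In co-culture alone, without the monocultures whose compound label disagrees, the log2 changes of these 10 probes lay between −4.80 and −1.44, and Mcm4 passed. The fit blocked by plate called 20 probes lower. Without plate 1 it was 4, without plate 5 it was 0 and without plate 7 it was 2.

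On day 7 phenobarbital lowered 4 of 36 probes (3.28% of all probes) and raised 0 (2.81%), and all 23 mitosis probes were below 0, with a median of −1.08 against 0.01 for all probes. The replication median was −0.91. Top2a was at 1.92, 7.45 and 18.3 CPM against 17.8, 31.5 and 87.7 CPM (−2.09 ± 0.56, adjusted p = 0.0131). The highest treated library only just passed the lowest vehicle library. Cenpe was at 0, 10.5 and 23.9 CPM against 16.1, 38.3 and 84.4 CPM (−1.78 ± 0.55, adjusted p = 0.0334). Rrm1 was at 22.1, 34.7 and 46.4 CPM against 38.1, 88.1 and 285 CPM (−1.59 ± 0.48, adjusted p = 0.0311), and Mcm5 at 0.552, 2.54 and 4.64 CPM against 2.34, 6.89 and 10.6 CPM (−1.48 ± 0.47, adjusted p = 0.0438). Mki67 was at 1.93, 6.15 and 11.5 CPM against 7.33, 17.0 and 32.1 CPM, and did not pass. Blocked by plate, 13 were called lower, DESeq2 called 9, and without plate 1 there were 7. Without plate 3, plate 5 or plate 7 there were 0.

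GW7647 at 1 µM changed no member past the threshold in edgeR: 0 of 33 on day 1 (0.352% of all probes; 0 at an unadjusted p under 0.05, 0 by DESeq2), 0 of 38 on day 3 (0.29%; 5 and 3) and 0 of 36 on day 7 (0.0219%; 0 and 0). The mitosis medians were 0.23, 0.42 and −0.12 on the 3 days, against 0.02, 0.09 and −0.03 for all probes. On day 3 Ccna2 had 220 counts against 5 and Birc5 157 against 23 (adjusted p = 0.0747 and 0.0782). Ccne2 had 54 counts against 0. With a scaling that moved the median of all probes on that day by 0.17, 3 probes were called higher. These treated libraries include plate 9, which held no vehicle wells: Ccna2 was there at 24.7 CPM in co-culture and 9.25 CPM in monoculture, against 0 to 3.48 CPM in the other treated libraries, and Birc5 at 15.1 and 7.80 CPM against 0 to 2.52 CPM. With the plate as a block the mitosis median was 0.26 and 0 were called. With the 3 libraries of disputed dose counted as 1 µM, 0 were called in either direction. Top2a on day 1 was at 2.38, 11.1 and 49.4 CPM against 1.52, 5.61 and 35.4 CPM, and Mki67 at 0.795, 4.56 and 11.1 CPM against 2.72, 5.32 and 12.4 CPM, each overlapping with vehicle. Ccnb2 on that day was at 10.8, 12.1 and 60.5 CPM against 4.92, 9.13 and 37.7 CPM, with all 8 treated libraries above the vehicle median, and did not pass.

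Markers moved beside these changes. Of all probes, 9.19%, 7.51% and 7.77% were lower with ketoconazole, gemfibrozil and phenobarbital on day 1, and 2.05%, 7.02% and 7.55% on day 3. With phenobarbital on day 7 the share was 3.28%. Several of the counts of 1 or 2 markers below lay near these shares. With ketoconazole on day 1, 5 of 16 hepatocyte markers, 2 of 11 mesenchymal and 3 of 15 macrophage markers were lower, and the summed mesenchymal CPM was 61.5 to 376 against 134 to 594 in vehicle. With gemfibrozil on day 1, 7 of 16 hepatocyte, 1 of 11 mesenchymal and 3 of 7 cholangiocyte and progenitor markers were lower. With phenobarbital on day 1, 3 of 11 mesenchymal, 3 of 7 cholangiocyte and progenitor, 2 of 15 macrophage and 2 of 16 hepatocyte markers were lower, and the mesenchymal sum was 39.5 to 220 CPM. With ketoconazole on day 3, 1 of 16 hepatocyte, 1 of 15 macrophage, 1 of 10 cholangiocyte and progenitor and 0 of 13 mesenchymal markers were lower. With gemfibrozil on day 3, 5 of 16 hepatocyte, 5 of 13 mesenchymal, 5 of 10 cholangiocyte and progenitor, 2 of 11 endothelial and 2 of 15 macrophage markers were lower, with mesenchymal sums of 200 to 1212 against 694 to 1891. With phenobarbital on day 3, 8 of 13 mesenchymal, 3 of 11 endothelial, 3 of 15 macrophage, 2 of 10 cholangiocyte and progenitor and 3 of 16 hepatocyte markers were lower, and the summed mesenchymal CPM was 128 to 535 against 694 to 1891, without overlap. On day 7 it was 401 to 6237 against 1886 to 24640, with 2 of 17 mesenchymal, 3 of 12 endothelial, 3 of 12 cholangiocyte and progenitor, 1 of 15 macrophage and 0 of 16 hepatocyte markers lower. The part of these cell types in the lower mitosis genes was not tested.

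Below the highest dose, called members were rare. In the 24 comparisons at lower doses 1 of 856 tests of a member passed (0.604% of all probes): Rrm1 at 100 µM gemfibrozil on day 1, at 19.9, 34.4 and 71.0 CPM against 42.5, 73.0 and 166 CPM in vehicle, a log2 change of −1.25 ± 0.38 (adjusted p = 0.0263). All 8 treated libraries were below the vehicle median. In that comparison alone 1186 of all 12504 probes were higher and 688 lower, of 1917 called over all 24 comparisons. The single member call there was thus not above the share of all probes. Without plate 1, plate 5 or plate 7 there were 0 calls of members at lower doses, and without plate 3 there were 2, as with the plate as a block. In monoculture on day 1 the mean of Top2a was 10.0 CPM in vehicle and 7.94, 2.96 and 0.401 CPM at 1, 10 and 30 µM ketoconazole. In co-culture it was 11.3 CPM, then 7.67, 9.31 and 0.992 CPM. For phenobarbital on day 3 it was 23.4 CPM in vehicle and 27.99, 31.9 and 2.57 CPM at 0.1, 1 and 10 mM in monoculture, and 31.2 CPM, then 45.1, 32.2 and 4.21 CPM in co-culture. In these means phenobarbital lowered Top2a at the highest dose alone. The mitosis sums had the same order: on day 3 they were 187 ± 93.1, 188 ± 72.7 and 35.2 ± 10.5 CPM (n = 3) in monoculture and 286 ± 159, 233 ± 44.2 and 52.8 ± 28.95 CPM in co-culture. The replication sums at the highest dose were 226 ± 28.3 and 175 ± 62.2 CPM. Phenobarbital had no day 3 library on plate 3, where the vehicle mitosis sums were lowest, at 58.4 CPM in monoculture and 74.5 CPM in co-culture. The vehicle means include that plate, so levels of the lower doses above them cannot be read as a rise.

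**Figure D4:**
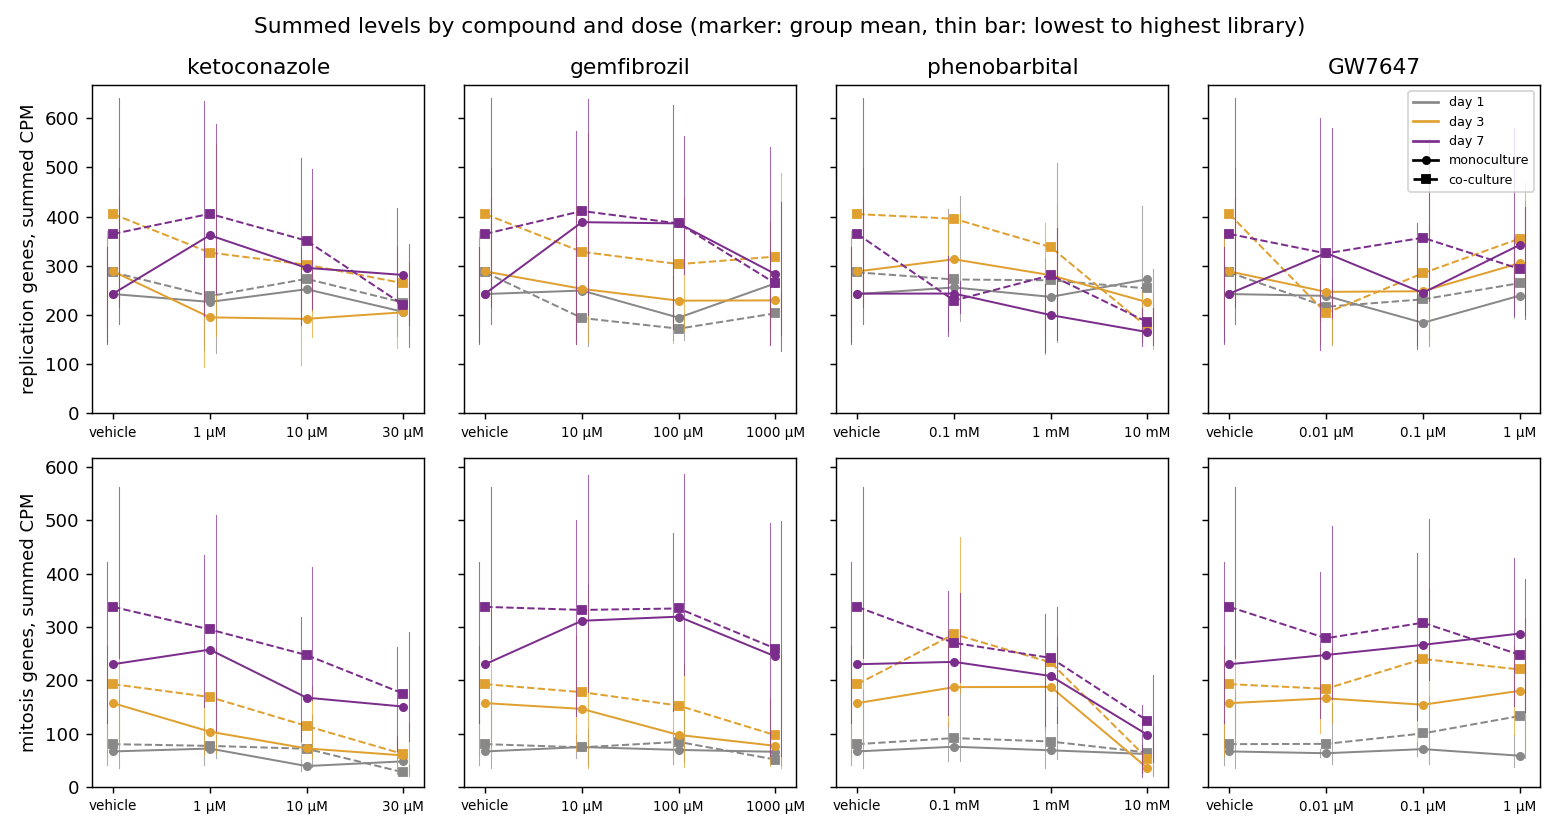
Summed CPM of replication probes and mitosis probes (y axis) by dose (x axis, vehicle first) for each compound, with a marker for the mean of a group of 3 to 5 libraries and a thin bar from its lowest to its highest library, by day and culture. The mitosis sums of phenobarbital on day 3 drop at 10 mM to means of 35.2 and 52.8, while its 2 lower doses lie at 187 to 286. The vehicle means of 157 and 193 include plate 3, where vehicle was lowest (58.4 and 74.5) and phenobarbital had no day 3 library.

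Within a single culture fewer members passed, with 3 to 5 treated libraries against 4. Over the 12 comparisons at the highest doses, 10 of 428 tests passed in monoculture (2.01% of all probes) and 3 in co-culture (1.09%). The count in monoculture lay near the share of all probes, and the count in co-culture lay below it. In monoculture 5 of the 10 were at 30 µM ketoconazole on day 1 (Top2a, Cenpf, Kif23, Kif2c and Rrm2), where 404 of all 12504 probes were lower. The single rise among the 10, Ccnb1 with ketoconazole on day 7, rested on 16 counts against 1, 15 of them in 1 library. In co-culture Top2a and Mki67 passed with ketoconazole on day 1 and Mcm4 with phenobarbital on day 3. The response itself did not differ between the cultures for any member by edgeR (0 of 428 tests, where 0.00189% of all probes passed; 16 at an unadjusted p under 0.05).

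Other genes of the cell cycle were followed as lists. Of all 11823 probes tested over time, 1618 were higher and 1035 lower on day 7 in monoculture, and 1801 and 894 in co-culture. Of 33 tested probes of other mitosis genes, 11 were higher and 1 lower on day 7 than on day 1 in vehicle wells of each culture. Kif22, a chromosome-bound kinesin, rose by 1.92 ± 0.46 on the log2 scale (adjusted p = 0.00488) in monoculture and by 2.13 ± 0.46 (adjusted p = 0.00232) in co-culture, and Nuf2, of the kinetochore, by 1.69 ± 0.54 (adjusted p = 0.0268) and 2.12 ± 0.55 (adjusted p = 0.00753). The 1 that fell was Cks2, a small partner of Cdk1, by 1.89 ± 0.57 (adjusted p = 0.0203) and 1.83 ± 0.57 (adjusted p = 0.0232). Of 27 probes of other replication genes 0 passed in monoculture (edgeR, 4 at an unadjusted p under 0.05) and 3 were higher in co-culture: Clspn, Mcm10 and Chaf1a. Of 16 probes for entry into the cycle 4 and 3 were higher, among them cyclin D1 (Ccnd1), by 1.84 ± 0.55 (adjusted p = 0.0185) and 1.78 ± 0.55 (adjusted p = 0.0213), and cyclin D2 (Ccnd2), by 4.21 ± 0.95 and 5.08 ± 1.02. Of 19 probes for brakes on the cycle 1 was higher in each culture (Rbl2, a pocket protein of resting cells) and 3 and 4 were lower, among them the stress-induced Gadd45a, which fell by 1.16 ± 0.26 in monoculture.

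At the highest doses Ccnd1 and Gadd45a moved the other way. Ccnd1 fell with ketoconazole on day 1 by 2.42 ± 0.60 (adjusted p = 0.00215), with gemfibrozil on day 1 by 2.66 ± 0.60 (adjusted p = 0.00121) and on day 3 by 1.85 ± 0.54, and with phenobarbital on days 1, 3 and 7 by 2.13 ± 0.59, 2.43 ± 0.64 and 2.23 ± 0.58. Gadd45a rose with ketoconazole on day 1 by 2.08 ± 0.34 (adjusted p = 4.7e-06), with gemfibrozil by 1.73 ± 0.34 on day 1 and 1.06 ± 0.27 on day 3, and with phenobarbital by 2.22 ± 0.34, 1.45 ± 0.30 and 1.68 ± 0.35 on the 3 days. Wee1, a kinase that keeps Cdk1 off, rose with ketoconazole on day 1 by 1.22 ± 0.27 and with phenobarbital by 1.55 ± 0.27, 1.23 ± 0.30 and 1.28 ± 0.31. Not every gene of these lists did so: Myc, which drives entry into the cycle, rose with ketoconazole on day 1 by 1.104 ± 0.31, with gemfibrozil on day 3 by 0.94 ± 0.26 and with phenobarbital by 2.44 ± 0.32 on day 1 and 1.71 ± 0.28 on day 3, and the growth factor Areg rose with ketoconazole on day 1 by 2.53 ± 0.89 (adjusted p = 0.0356). The inhibitor Cdkn2b fell with phenobarbital on day 1 by 1.15 ± 0.38 (adjusted p = 0.028) and on day 7 by 1.32 ± 0.39 (adjusted p = 0.0253). The inhibitor Cdkn1a (p21) passed only with gemfibrozil on day 1, at 0.91 ± 0.33 (adjusted p = 0.0401). Of 41 other mitosis probes 9 were lower with phenobarbital on day 3, including Tacc3, Dlgap5 and Kif22, and 4 on day 7. Of the 30 and 29 other replication probes, 4 were lower on day 3, among them Gins2 and Orc1, and 3 on day 7. With ketoconazole on day 1 only 1 of 37 other mitosis probes was lower (Cdca3), and of 29 other replication probes 1 was lower (Mcm10, by 3.85 ± 0.70, adjusted p = 3.37e-05) and 2 were higher. At that dose and day 9.19% of all probes were lower, so neither of these lists was above that share.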

How the data were processed

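Raw read counts per TempO-Seq probe were deposited as a single table of 311 libraries. Per the labels' protocols the assay's supplier generated these counts, and Bowtie is named in the submitters' processing notes, while neither its version nor the settings nor the genome build was found there (not given in the sources used here). Probe-based counting reads a short stretch of each RNA, so a failing probe cannot be told from an unexpressed gene. From the counts, tests were made with edgeR 4.0.16 (R 4.3.3): TMM scaling, filterByExpr with a minimum count of 10, quasi-likelihood tests, two-sided, with Benjamini-Hochberg adjustment over all tested probes and a threshold of 0.05. DESeq2 was version 1.42.0. SE is the size of the log2 change divided by the square root of F. CPM used TMM factors over all libraries. Time was fitted on the 6 vehicle groups, and doses and cultures in 1 fit of the 26 groups of a day. Folds of probes with 0 counts in a group used a floor of 3 counts over the group, and those with 1 to 3 counts an exact 95% interval, both covering counting error only. The tests were checked on simulated counts, where the changed probes were well counted and libraries were drawn without a plate effect. That check does not cover probes with few counts or libraries that deviate together by plate.

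Replicates are numbered by plate, and libraries of a plate deviated together (mean correlation of deviations 0.197, 0.169 and 0.261 on days 1, 3 and 7, against −0.065, −0.046 and −0.087 between plates). Since the labels say that the number marks a shared plate, the plate was used as a block as an alternative. Samples were grouped by their descriptions where labels disagreed: 33 monoculture phenobarbital libraries carry a ketoconazole label, 3 co-culture GW7647 libraries of day 3 are described at 0.1 µM and labelled 1 µM, and phenobarbital doses were read as mM. Alternatives were DESeq2, its size factors in edgeR, no filter, the block, the share of the 50 most abundant probes as a term, only the compared groups, each plate left out, the library under 1000000 counts left out, the other GW7647 grouping and, chosen after seeing the data, all wells. Members and lists were chosen with earlier results of these data known. Members were named where they passed a test, up to 8 per list and comparison, or belonged to a short list of marker genes. Marker lists of 7 cell types were used, of which those for lymphocytes, neutrophils and red cells had at most 2 tested probes. No libraries were identical and none was left out.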

Additional observations from a re-analysis of the deposited data

Results flagged for a closer look

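Of 90 groups of summed levels and of single genes examined, 15 held a library that stood apart from the rest of its group by Dixon's criterion. Chance alone meets it in about 5% of groups when these are independent and normally distributed. Here the sums contain the single genes and the groups share libraries, so the 15 cannot be set against that rate. Plate 1 was the high library on day 1 in vehicle wells. Its mitosis sum in co-culture was 181.2 CPM against 35 to 57.01 CPM on the other plates, its Ccnb2 37.66 CPM against 5.903 to 9.506 CPM, and its Top2a 35.43 CPM against 1.523 to 5.657 CPM. In monoculture its Top2a was 22.86 CPM against 5.009 to 6.562 CPM and its Mcm2 60.35 CPM against 29.19 to 32.99 CPM. On day 3 its Cenpe in co-culture was 45.21 CPM against 6.044 to 11.79 CPM.

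Plate 5 was the high library on day 7 in vehicle wells. In co-culture its mitosis sum was 562.4 CPM against 242.3 to 279 CPM, its Ccnb2 155 CPM against 55.38 to 59.24 CPM and its Cenpe 84.36 CPM against 36.6 to 40.81 CPM. In monoculture its Top2a was 64.01 CPM against 17.78 to 21.82 CPM and its Cenpe 76.29 CPM against 16.07 to 25.57 CPM.

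With 1000 µM gemfibrozil on day 3 plate 7 stood apart in both cultures, with a mitosis sum of 249.6 CPM against 35.92 to 63.97 CPM in co-culture and of 167 CPM against 38.28 to 67 CPM in monoculture. The replication sum stood apart on plate 1 with 1 µM GW7647 on day 1 in co-culture (432.3 CPM against 199.4 to 218.9 CPM) and on plate 5 with 30 µM ketoconazole on day 7 in monoculture (418.1 CPM against 223.7 to 256.2 CPM). All 15 were the highest of their groups.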

How the results depend on the processing

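Of 53 called values none changed direction in any alternative that was run, and 7 passed in each alternative that tested them: Cenpe in co-culture from day 1 to day 7, Top2a, Mki67, Rrm2, Kif23 and Kif2c with ketoconazole on day 1, and Top2a with gemfibrozil on day 1. Rrm2, Kif23 and Kif2c did not pass the count filter when only the compared groups entered. With the plate as a block 52 passed, with DESeq2 51, with other size factors 51, and without plate 5 only 11. Leaving out each plate in turn, the counts of called probes ran from 0 to 8 for monoculture and from 2 to 7 for co-culture (day 7 against day 1), and from 0 to 5 for the other 4 time comparisons. They ran from 7 to 11, 0 to 6 and 0 to 1 for ketoconazole on days 1, 3 and 7, from 1 to 7 and 0 to 11 for gemfibrozil on days 1 and 3, and from 0 to 3, 0 to 15 and 0 to 7 for phenobarbital on days 1, 3 and 7. For rises at the highest doses they ran from 0 to 3 and for lower doses from 0 to 2.

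Using all wells, which was chosen after seeing the data, monoculture counted 26, co-culture 27 and the other 4 time comparisons 77. DESeq2 counted 7 in monoculture, 10 in the other time comparisons, 1 between cultures over all wells, 6 for ketoconazole on day 3, 9 for phenobarbital on day 7, 6 rises at the highest doses and 3 at lower doses. Other size factors counted 6 rises at the highest doses and 2 at lower doses. Without a filter on low counts there were 2 in the other time comparisons, 0 for ketoconazole on day 3 and 1 rise at the highest doses. With the plate as a block there were 5 in monoculture, 9 in the other time comparisons, 9 and 1 for ketoconazole on days 3 and 7, 20 and 13 for phenobarbital on days 3 and 7, and 2 at lower doses, and the block ended 1 call, that of Ccne2 with gemfibrozil on day 3. With the share of the 50 most abundant probes as a term there were 0 in the other time comparisons, 3 between cultures, 0 for ketoconazole on day 3, 0 for gemfibrozil on day 3, 6 for phenobarbital on day 3 and 0 at lower doses. With only the groups compared in the fit, where fewer of the called probes passed the count filter, there were 4 for ketoconazole on day 1, 1 and 0 for gemfibrozil on days 1 and 3, 0 rises at the highest doses and 2 at lower doses. The cause of these shifts was not tested. Size factors moved the median of all probes by 0.12 (day 7 against day 3, both cultures), 0.17 (GW7647, day 3) and 0.13 (gemfibrozil, day 3). Depth limits the probes with few counts, among them Cdk1, Ccnb1 and Ccna2.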

Other observations

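Several members with 2 probes differed in what their probes counted. In co-culture vehicle wells of day 7, 1 Cenpe probe averaged 50.4 CPM and the other 3.12 CPM, and 1 Nusap1 probe averaged 47.3 CPM and the other 0.316 CPM. Both Cenpe probes rose from day 1 to day 7 over all wells, by 2.77 ± 0.22 and 3.07 ± 0.44 on the log2 scale in monoculture. Of the 2 Aurkb probes 1 was never counted, and the other averaged 3.78 CPM on day 7 of the co-culture.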
